A study of Schizosaccharomyces pombe with 24 samples.

Results

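The genes described here are the 112 cytosolic ribosomal protein genes of fission yeast (Schizosaccharomyces pombe) measured on an expression array, out of 4981 features in all. They are the genes whose symbol starts with rpl (large subunit, 67 genes) or rps (small subunit, 45 genes) followed by a digit. Where a gene had more than 1 probe set, which was the case for 2 genes, the brightest was used, and 7 further probe sets that carry the names of 2 paralogs each were not used. RefSeq annotation lists 131 nuclear genes with such symbols, so 19 of them are not among the members.

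Asynchronous cultures of 9 genotypes, grown at 30 °C, gave 24 arrays. There were 3 arrays for each of Δgcn5, Δmst2, Δelp3, mst1-ts, Δgcn5 Δmst2, Δmst2 Δelp3 and wild type, 2 for Δgcn5 Δelp3 and a single array for Δgcn5 Δelp3 Δmst2, called the triple mutant here. Gcn5, Elp3 and Mst2 are non-essential histone acetyltransferases, enzymes that add acetyl groups to histones, and Mst1 is an essential one. Replicates are stated to be independent isolates. In the strain list of the study gcn5 and elp3 are replaced by a kanMX cassette and mst2 by ura4+, and the mst1-ts strain lacks mst1 at its own locus and carries a mutated mst1 under the nmt promoter at leu1. All these strains are listed with ura4-D18 and an ade6 allele, and all but mst1-ts with leu1-32. The wild type listed as h+ also carries can1-1. For Δgcn5 and Δgcn5 Δmst2 the list holds a strain with his3-D1 and one without, both h- for Δgcn5 and of either mating type for the double mutant. The study's legends for these array comparisons name the strains with his3-D1, h- for Δgcn5 and h+ for Δgcn5 Δmst2. Its legend that includes mst1-ts names the h+ wild type. The other strains are h+. One set of arrays is titled as a mst2 mutant but has the genotype and source of a temperature-sensitive mst1 mutant, and was taken as mst1-ts.

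The cytosolic ribosome consists of a large and a small subunit, each built of ribosomal RNA and many different proteins that are needed in equal numbers. Their genes are among the most strongly transcribed in growing yeast, and their output is known to follow nutrient supply through TOR signalling. Most of them exist as paralogs, duplicated genes that encode nearly the same protein, numbered 01, 02 and 03 after the name of the protein. The comparison of each mutant with wild type asks whether the transcripts differ where a given acetyltransferase is lost or altered. The double mutants ask whether combined losses differ from single ones. The study reports a prolonged lag phase in Δelp3, with a growth rate similar to wild type in exponential phase. It also reports severe growth defects in mst1-ts and the triple mutant. It calls the growth temperature of mst1-ts semi-permissive, so this strain need not stand for full loss of Mst1. The part of growth in the changes was not tested.

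The deposited values are log2 intensities, and array medians over all features lay between 10.99 and 11.08. The deleted gene went against the label in replicate 2 of Δgcn5 and in replicate 2 of Δmst2, which are called the doubted libraries below. The gcn5 transcript was at 10.93 in the first, against 5.37 and 5.72 in the other Δgcn5 arrays, and mst2 was at 10.01 in the second, against 5.18 and 5.28 in the other Δmst2 arrays. In turn mst2 was at 5.21 in the doubted Δgcn5 library and gcn5 at 5.43 in the doubted Δmst2 library. The his3 transcript was at 13.69 in the doubted Δgcn5 library, against 6.18 and 5.94 in the other Δgcn5 arrays. In wild type replicate 2 ura4 was at 12.85 and mst2 at 8.73, against 7.40 and 7.45 for ura4 and 9.89 and 10.13 for mst2 in the other wild-type arrays. The elp3 transcript lay between 5.93 and 6.98 in the groups lacking elp3, against 11.47 to 12.02 in wild type, and mst1, whose construct still gives RNA, lay between 11.38 and 11.94 in mst1-ts, against 10.09 to 10.58 in wild type, which checks nothing. The counts of calls, the medians and the interaction of rpl1603 are given with and without the doubted libraries, and the counts of calls also without wild type replicate 2. Counts by array and statements on single genes in Δgcn5 and Δmst2 include the doubted libraries unless stated. By the labels 14 arrays carry an earlier and 10 a later experiment date. The later date holds every array of the groups lacking elp3 and 1 of Δgcn5 Δmst2, so that for the groups lacking elp3 date and genotype are separated only through the 3 arrays of Δgcn5 Δmst2.

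Probe sets of ribosomal protein genes were bright and varied little. Their means over all arrays ran from 11.98 to 15.12 with a median of 14.50, against a median of 11.01 over all features. A signal also depends on the probes of a gene, so these levels do not rank the transcripts. The highest value on any array was 15.35, so the members lay near the top of the measured scale, and the part of this position in their small changes was not tested. The SD between replicates, pooled over groups, had a median of 0.067 for the members and 0.21 for all features. The range of the 9 group means had a median of 0.22 for the members and 0.89 for all features. The 3 brightest members were rpl4102, with a mean of 15.12, rps13, with 15.08, and rpl1001, with 15.06. Their group means spanned 0.22, 0.08 and 0.09 log2 units, and none of them passed the test in any mutant.

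Members with low signals had wider ranges on balance. Below the lower quartile by more than 1.5 times the interquartile range, that is under 13.69, lay the means of 6 genes, rpl1603, rps2202, rps1401, rpl102, rpl3402 and rpl3002. This division was made after the values were seen. Each of the 6 fell in at least 1 mutant, and 23 of the other 106 did. Each of the 6 carries a paralog number in its symbol, and for all but rps2202 a paralog was measured. The range of their group means had a median of 0.71 and reached 1.34, against a median of 0.22 in the other 106 members, among which rpl4101 reached 0.92. The low members also had the larger replicate SD, with a median of 0.19 against 0.064. Over all 112 members, Spearman's rho between mean and range was -0.53, which is a description across genes that share the same arrays. The plot of level against range shows these genes apart from a dense group.

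**Figure D1:**
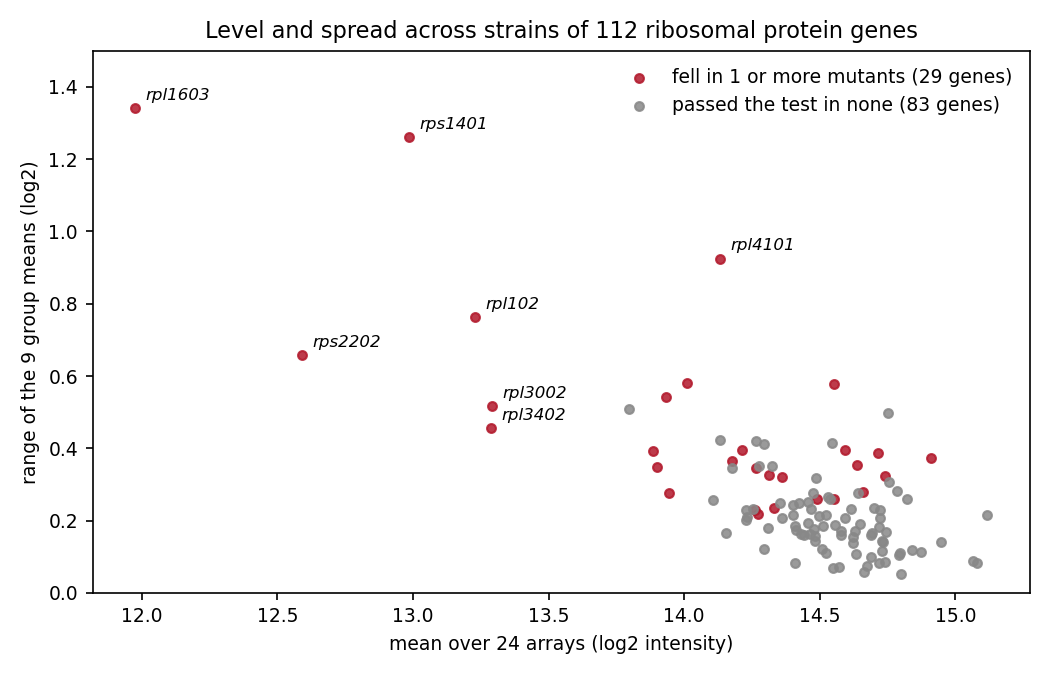
Each point is a ribosomal protein gene, with its mean over 24 arrays (log2 intensity) on the horizontal axis and the range of its 9 group means (log2) on the vertical axis. Red points are the 29 genes that fell in at least 1 mutant and grey points the 83 that passed the test in none, and the 6 genes under 13.69 sit at ranges of 0.46 to 1.34.

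Each mutant was set against wild type with limma, and a member was called to have risen or fallen at an adjusted p under 0.05 over all 4981 features, without a fold threshold. Over the 8 mutants 49 calls were made in 29 members, and all were falls. There were 18 members that fell in 1 mutant, 6 in 2, 2 in 3, 2 in 4 and 1 in 5, and 83 passed the test in none. All 8 comparisons use the same wild-type arrays. No member that passed reached the fold threshold of the study, a log2 change of 1.70.

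In Δgcn5 no member of 112 rose or fell, where 0.12% of all features fell and 0% rose. At an unadjusted p under 0.05 by limma, 0 members were lower and 1 was higher, where 2.97% and 3.39% of all features were. In Δmst2 no member rose or fell either, where 0.161% of all features fell and 0% rose, and 3 members were lower and 0 higher at an unadjusted p under 0.05, where 8.35% and 8.55% of all features were. The median change of the members was -0.03 in Δgcn5 and -0.01 in Δmst2, and over all features -0.01 in both. With the doubted libraries left out, the medians were -0.05 and 0.01 for the members and -0.01 and -0.03 over all features. Without the doubted libraries 1 member fell in Δgcn5, which was rpl102 (-0.62, limma adjusted p = 0.0283), and none in Δmst2. The shares of all features above are from the fit with these libraries, and none is given for the fit without them.

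In Δelp3 5 members fell (4.46%), 2 of the large and 3 of the small subunit, against 8.49% of all features that fell. In mst1-ts 3 members fell (2.68%), all of the large subunit, against 21.8% of all features. In Δgcn5 Δmst2 10 members fell (8.93%), again all of the large subunit, against 11.3% of all features. In these 3 mutants the share of members called was below that of all features.

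In Δgcn5 Δelp3 9 members fell (8.04%, 5 large and 4 small), against 9.01% of all features. In Δmst2 Δelp3 19 members fell (17.0%, 11 large and 8 small), against 9.19% of all features, and this was the mutant in which the share of members lay above the background. In the triple mutant 3 members fell (2.68%, 2 large and 1 small), against 5.4% of all features, with 1 array whose spread was taken from the other groups. In these 6 mutants no member rose, while 13% of all features did in Δelp3, 13.7% in mst1-ts, 13.6% in Δgcn5 Δmst2, 12.5% in Δgcn5 Δelp3, 12.7% in Δmst2 Δelp3 and 6.36% in the triple mutant. By limma at an unadjusted p under 0.05, 1 member was higher in mst1-ts, where 17.5% of all features were, and 0 in the other 5, where 20.2% of all features were in Δelp3, 19.7% in Δgcn5 Δmst2, 19.1% in Δgcn5 Δelp3, 19.8% in Δmst2 Δelp3 and 13.8% in the triple mutant.

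The counts rested on few arrays. For the fits below, with fewer arrays or a covariate, the share of all features is not given. An excess over the background, or a lack of one, cannot be read from them. Over the 112 members Δmst2 Δelp3 replicate 2 had a median of 14.34, the lowest of all 24 arrays, while replicates 1 and 3 had 14.48 and 14.50 and the wild-type arrays 14.56, 14.55 and 14.55. Without replicate 2 the count of falls in Δmst2 Δelp3 was 5 in place of 19, and without wild type replicate 1, 2 or 3 it was 8, 9 or 10. In Δgcn5 Δelp3 it was 0 or 1 without either of its own arrays and 3, 5 or 5 without wild type replicate 1, 2 or 3. In Δelp3 it was 2 and 0 without its own replicates 1 and 3, and 2, 1 or 1 without wild type replicate 1, 2 or 3, and in mst1-ts it was 1 without wild type replicate 1 or 2. Without the doubted libraries and wild type replicate 2 together, 1 member fell in Δelp3, 5 in Δgcn5 Δmst2, 5 in Δgcn5 Δelp3 and 9 in Δmst2 Δelp3. With the experiment date as a covariate no member fell in any group lacking elp3, and 5 fell in Δgcn5 Δmst2.

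As a whole the members shifted by small amounts. Their median change was -0.06 in Δelp3, -0.01 in mst1-ts, -0.08 in Δgcn5 Δmst2, -0.09 in Δgcn5 Δelp3, -0.10 in Δmst2 Δelp3 and -0.10 in the triple mutant. The median over all features was 0.02, -0.07, -0.01, 0.02, 0.02 and -0.01 in the same order. Below 0 were 84 members in Δelp3, 61 in mst1-ts, 101 in Δgcn5 Δmst2, 97 in Δgcn5 Δelp3, 94 in Δmst2 Δelp3 and 93 in the triple mutant. Large and small subunit genes shifted alike in size, with medians of -0.09 and -0.07 in Δgcn5 Δmst2 and of -0.10 and -0.11 in Δmst2 Δelp3.

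The direction of these medians held in every alternative tried for the 4 groups lacking elp3 and for Δgcn5 Δmst2, but with quantile normalization they shrank to -0.02 in Δelp3, -0.03 in Δgcn5 Δelp3, -0.05 in Δmst2 Δelp3 and -0.06 in the triple mutant. With the experiment date as a covariate the medians were further from 0, at -0.08 in Δelp3, -0.12 in Δgcn5 Δelp3, -0.12 in Δmst2 Δelp3 and -0.12 in the triple mutant. In mst1-ts and Δmst2 the median turned positive in some alternatives, up to 0.02 and 0.01. Among 74 other features with a mean at or above the lower quartile of the members, the median change was -0.07 in Δelp3, -0.06 in Δgcn5 Δelp3, -0.06 in Δmst2 Δelp3 and -0.02 in the triple mutant, and 0.01 in Δgcn5 Δmst2. In the elp3-lacking single and double mutants the other bright features were thus shifted downwards as well. In Δmst2, which has elp3, their median was -0.05, while that of the members was -0.01. In Δgcn5 and in mst1-ts the median of the other bright features was 0.01.

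Counted by array, 65 of 112 members had every Δgcn5 Δmst2 value below every wild-type value, against 20.3% of all features. In Δmst2 Δelp3 it was 52 members, against 19.7%, and in Δelp3 36, against 19.3%. In Δgcn5 Δelp3, with 2 arrays, it was 74, against 29%, and for the single array of the triple mutant 79, against 34.6%. In mst1-ts 24 members lay below without overlap, against 29.5%, in Δmst2 10, against 6.18%, and in Δgcn5 4, against 3.98%. The counts of Δmst2 and Δgcn5 include the doubted libraries. Of the 74 other bright features, 16 lay below in Δgcn5 Δmst2, 22 in Δmst2 Δelp3 and 23 in Δelp3. It was 34 in Δgcn5 Δelp3, 33 in the triple mutant, 6 in mst1-ts, 7 in Δmst2 and 2 in Δgcn5. In Δelp3, Δmst2 and Δgcn5 the share of members was thus near that of these features, and elsewhere above it.

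**Figure D2:**
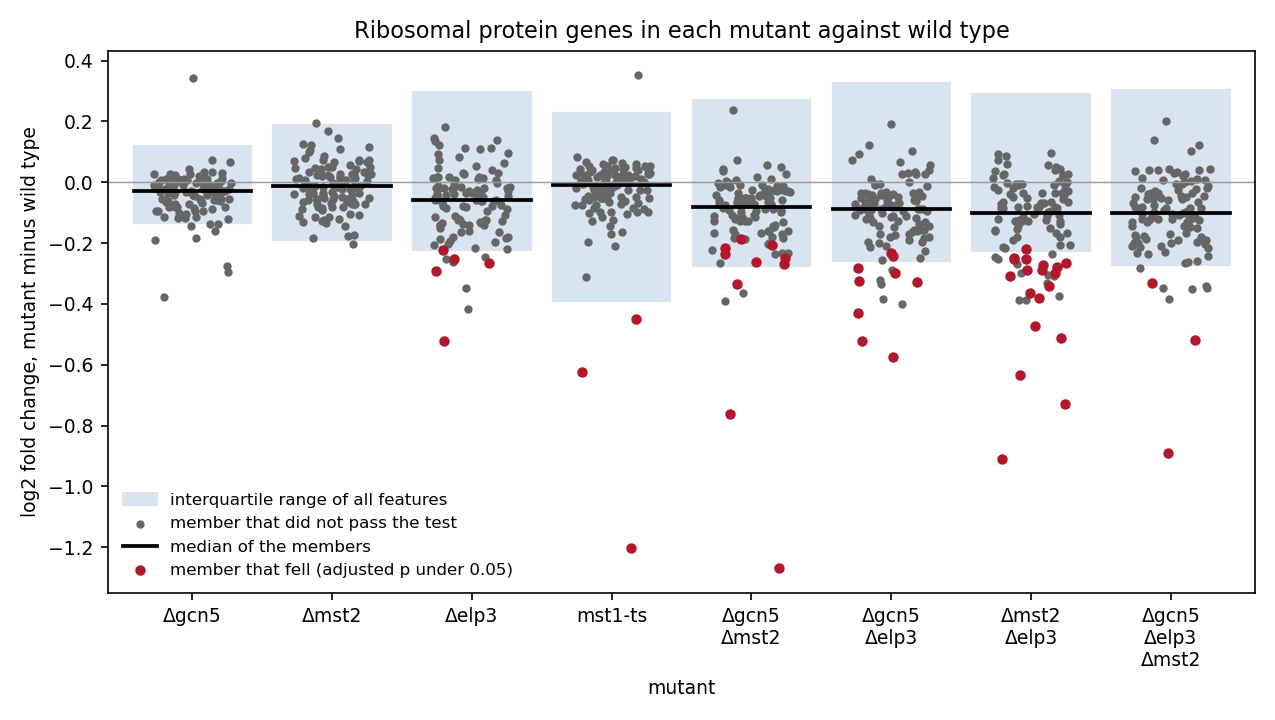
Log2 fold change of each of 112 ribosomal protein genes in each mutant against wild type, with the member median as a black bar and the interquartile range of all 4981 features as a shaded box. Red points passed limma's test and are all below 0, 19 of them in Δmst2 Δelp3 and 0 in Δgcn5 and Δmst2.

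The member with the largest fall was rpl1603 (SPBC2G2.05), one of 3 genes for the large-subunit protein uL13. Its values were 11.31, 11.18 and 11.25 in mst1-ts and 11.13, 11.20 and 11.21 in Δgcn5 Δmst2, against 12.82, 12.46 and 12.06 in wild type. All 6 mutant arrays lay below the lowest wild-type array, although the wild-type arrays themselves were spread widely. The change was -1.20 ± 0.16 (SE) in mst1-ts (limma adjusted p = 1.65e-05) and -1.27 ± 0.16 in Δgcn5 Δmst2 (adjusted p = 2.38e-05), about 2.30-fold and 2.41-fold lower.

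In the single deletions rpl1603 did not pass the test. Its values were 12.41, 12.26 and 11.85 in Δgcn5, 12.72, 12.39 and 12.45 in Δmst2 and 12.25, 12.40 and 12.33 in Δelp3, and each group overlaps the wild-type range (limma adjusted p = 0.79, 0.821 and 0.601). The departure of Δgcn5 Δmst2 from the sum of both single effects was itself tested and was -1.07 ± 0.22 (limma adjusted p = 0.0198), in a test that 1.39% of all features passed. Without the doubted libraries it was -1.09 ± 0.25 (limma adjusted p = 0.0256), where 3.63% of all features passed. Among the elp3 double mutants rpl1603 was at 11.89 and 11.86 in Δgcn5 Δelp3, where it fell by 0.57 (limma adjusted p = 0.0273), and at 12.15, 12.02 and 12.26 in Δmst2 Δelp3, where the change of -0.31 did not pass (adjusted p = 0.171). The triple mutant had 11.56, a fall of 0.89 (limma adjusted p = 0.0154).

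Ordered by group mean, rpl1603 was lowest in Δgcn5 Δmst2 and mst1-ts, whose values overlap each other. The triple mutant and Δgcn5 Δelp3 followed without overlap between neighbours. Then came Δmst2 Δelp3, Δgcn5, Δelp3, wild type and Δmst2, whose ranges overlap from neighbour to neighbour. Groups further apart in this order can overlap too, as the lowest Δgcn5 array lay below both Δgcn5 Δelp3 arrays. The falls in mst1-ts and Δgcn5 Δmst2 passed the test in each of 16 alternatives, with changes of -1.40 to -1.02 and -1.46 to -1.08. The fall in Δgcn5 Δelp3 was lost in 7 of 15 alternatives and that of the triple mutant in 2 of 13, with the date as a covariate among both.

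The other genes of the family, rpl1601 and rpl1602, encode the same protein and did not pass the test in any mutant. In mst1-ts rpl1602 had 14.61, 14.62 and 14.62, and in Δgcn5 Δmst2 14.51, 14.55 and 14.60, against 14.50, 14.65 and 14.65 in wild type. For rpl1601 the values were 14.46, 14.49 and 14.45 in mst1-ts and 14.47, 14.47 and 14.43 in Δgcn5 Δmst2, against 14.38, 14.54 and 14.53 in wild type. Both mutants overlap wild type for both genes, as the plot of the family shows.

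**Figure D3:**
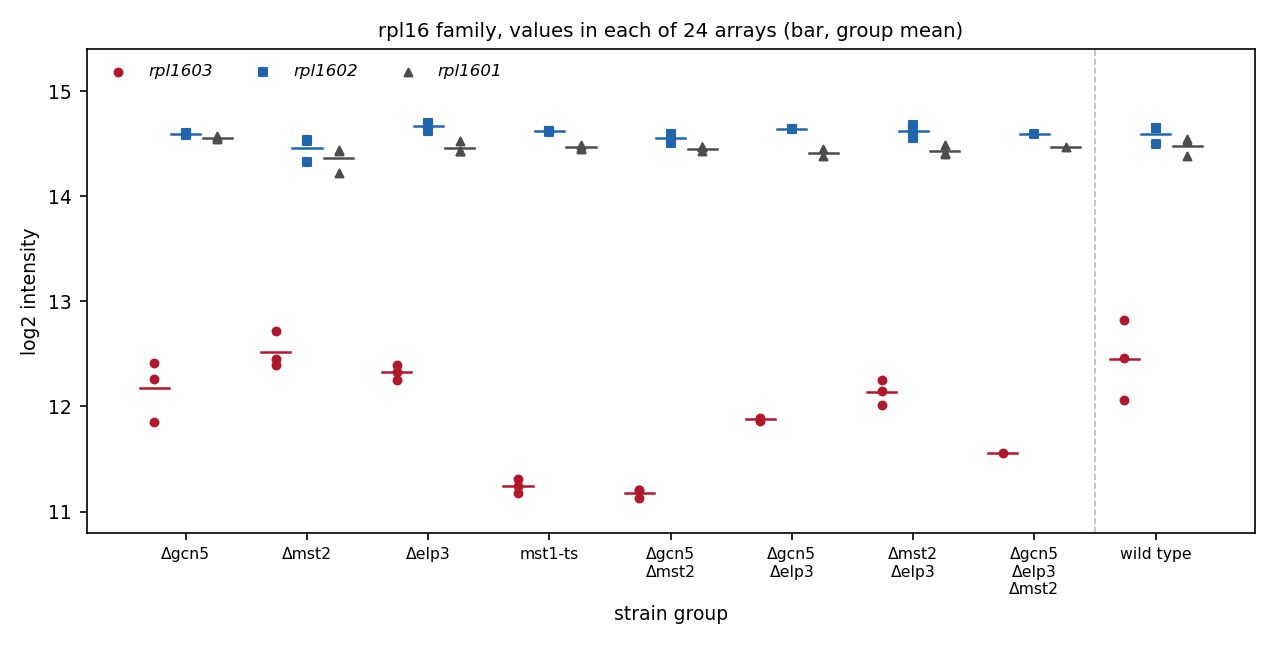
Log2 intensity of rpl1603, rpl1602 and rpl1601 in each of 24 arrays by strain group, with a bar at the group mean and wild type to the right of the dashed line. rpl1603 lies between 11.13 and 11.31 in mst1-ts and Δgcn5 Δmst2, against 12.06 to 12.82 in wild type, while rpl1601 and rpl1602 lie above 14 everywhere.

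A further large-subunit gene, rpl102 (SPBC30D10.18C), showed the same 2 groups low. It encodes uL1, the protein of the L1 stalk. Its values were 12.94, 12.90 and 12.93 in mst1-ts and 12.73, 12.75 and 12.87 in Δgcn5 Δmst2, against 13.77, 13.61 and 13.26 in wild type, without overlap. It fell by 0.62 in mst1-ts (limma adjusted p = 0.0184) and by 0.76 in Δgcn5 Δmst2 (adjusted p = 0.00885).

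In Δgcn5 rpl102 ranged from 12.62 in replicate 3 to 13.65 in the doubted replicate 2, and with the doubted libraries left out rpl102 was called there too, as given above. The fall in Δgcn5 Δmst2 passed in each of 16 alternatives, and that in mst1-ts in 14, the exceptions being those without wild type replicate 1 (adjusted p up to 0.0873) or replicate 2. Its paralog rpl101 had 14.78, 14.81 and 14.80 in mst1-ts and 14.79, 14.73 and 14.78 in Δgcn5 Δmst2, against 14.85, 14.80 and 14.81 in wild type, with changes of -0.03 and -0.05 that did not pass, although the Δgcn5 Δmst2 arrays lay just below wild type.

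The third member that fell in mst1-ts was rpl3402, which encodes the large-subunit protein eL34. It had 13.05, 12.99 and 12.95 in mst1-ts, against 13.58, 13.50 and 13.27 in wild type (-0.45 ± 0.15, limma adjusted p = 0.0258). In Δgcn5 Δmst2 it had 13.07, 13.06 and 13.12, also below every wild-type array, but the change of -0.36 did not pass (adjusted p = 0.0831). The paralog rpl3401 lay at 14.69, 14.63 and 14.59 in mst1-ts, against 14.66, 14.61 and 14.60 in wild type.

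The other 8 members that fell in Δgcn5 Δmst2 all encode large-subunit proteins. They were rpl702, rpl502, rpl1702, rpl803, rpl3002, rpl1502, rpl2401 and rpl802, with changes of -0.34 to -0.19. The largest of these was rpl3002 (-0.34), which encodes eL30, with 12.86, 13.03 and 13.10 in the double mutant, against 13.45, 13.33 and 13.21 in wild type. When any of the arrays of Δgcn5 Δmst2 or wild type was left out, the count of members that fell was between 2 and 5, and with only these 6 arrays in the fit it was 2.

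In the groups lacking elp3 the falls reached -0.91. The member called in most mutants was rpl502 (SPBC11C11.09C), which encodes uL18, the protein that binds 5S ribosomal RNA. Its values were 13.94, 13.90 and 13.77 in Δelp3, 13.61 and 13.77 in Δgcn5 Δelp3, 13.84, 13.92 and 13.76 in Δmst2 Δelp3 and 13.60 in the triple mutant, against 14.09, 14.11 and 14.17 in wild type. All 9 arrays lacking elp3 were below all wild-type arrays. It fell by 0.25, 0.43, 0.28 and 0.52 in these mutants, with limma adjusted p of 0.0308, 0.00273, 0.0193 and 0.0062.

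The gene also fell in Δgcn5 Δmst2, with 13.89, 13.78 and 13.88 (-0.27, limma adjusted p = 0.0208). Every Δmst2 array was also below wild type, but the change of -0.18 did not pass (limma adjusted p = 0.284). In mst1-ts rpl502 had 14.21, 14.12 and 14.11, within or above the wild-type range. Its paralog rpl501 differed by -0.11 in Δelp3, -0.20 in Δgcn5 Δelp3, -0.13 in Δmst2 Δelp3 and -0.19 in the triple mutant, none of which passed. The falls of rpl502 were lost in 7 of 16 alternatives in Δelp3, 2 of 15 in Δgcn5 Δelp3, 4 of 16 in Δmst2 Δelp3, 2 of 13 in the triple mutant and 3 of 16 in Δgcn5 Δmst2.

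The small-subunit gene rps1001, which encodes eS10, fell in all 4 groups lacking elp3 and passed the test in no other. In Δmst2 and Δgcn5 Δmst2 it changed by -0.13 and -0.11 (limma adjusted p = 0.339 and 0.251), with every array below wild type. It had 14.06, 14.11 and 14.12 in Δelp3, 14.05 and 14.03 in Δgcn5 Δelp3, 14.03, 13.91 and 13.93 in Δmst2 Δelp3 and 13.99 in the triple mutant, against 14.25, 14.34 and 14.37 in wild type. Again no array lacking elp3 reached the lowest wild-type array. The falls were 0.22, 0.28, 0.37 and 0.33, with limma adjusted p of 0.0309, 0.0165, 0.00168 and 0.0367.

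Its paralog rps1002 had 14.51, 14.47 and 14.54 in Δelp3 and 14.42, 14.26 and 14.55 in Δmst2 Δelp3, against 14.40, 14.54 and 14.53 in wild type, so that these groups overlapped. The fall of rps1001 in Δmst2 Δelp3 was lost in 1 of 16 alternatives, the one with the date as a covariate (-0.34, adjusted p = 0.178), whereas it was lost in 9 of 16 in Δelp3, 6 of 15 in Δgcn5 Δelp3 and 8 of 13 in the triple mutant.

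The small-subunit gene rps2202, which encodes uS8, had 12.52, 12.29 and 12.34 in Δelp3, 12.25 and 12.51 in Δgcn5 Δelp3 and 12.53, 12.10 and 12.17 in Δmst2 Δelp3, against 13.07, 12.80 and 12.84 in wild type. It fell by 0.52, 0.52 and 0.63, with limma adjusted p of 0.017, 0.0299 and 0.00545. The arrays of Δgcn5 Δmst2, at 12.45, 12.45 and 12.63, were also below wild type, but this change of -0.39 did not pass (adjusted p = 0.0578), nor did that of the triple mutant, at 12.56 (-0.34, adjusted p = 0.324). The falls were lost in 4 of 16, 6 of 15 and 1 of 16 alternatives, in each case with the date as a covariate among them. No paralog of this gene was measured on its own.

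The genes rpl1902, for the large-subunit protein eL19, and rps1801, for the small-subunit protein uS13, fell by similar amounts. For rpl1902 the values were 14.07, 14.37 and 14.12 in Δelp3, 14.10 and 14.16 in Δgcn5 Δelp3 and 14.20, 14.21 and 14.20 in Δmst2 Δelp3, against 14.46, 14.45 and 14.45 in wild type, with falls of 0.27, 0.33 and 0.25. For rps1801 they were 13.72, 13.87 and 13.63 in Δelp3 and 13.80, 13.43 and 13.74 in Δmst2 Δelp3, against 14.07, 13.98 and 14.05 in wild type, with falls of 0.29 and 0.38. None of these arrays overlapped wild type. Limma's adjusted p ran from 0.0108 to 0.0411. The falls of rpl1902 were lost in 8 of 16 alternatives in Δelp3, 4 of 15 in Δgcn5 Δelp3 and 10 of 16 in Δmst2 Δelp3, and those of rps1801 in 8 of 16 in Δelp3 and 3 of 16 in Δmst2 Δelp3.

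The largest fall in a group lacking elp3 was that of rps1401 (SPAC3H5.05C), which encodes the small-subunit protein uS11. It had 12.59, 11.86 and 12.01 in Δmst2 Δelp3, against 12.93, 13.02 and 13.25 in wild type, without overlap (-0.91 ± 0.16, limma adjusted p = 0.000658). In Δelp3 it had 12.70, 12.64 and 12.60, also below wild type, but the change of -0.42 did not pass (adjusted p = 0.0642).

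The same gene had its higher values elsewhere. They were 13.44, 13.32 and 13.47 in Δgcn5 and 13.48, 13.46 and 13.31 in mst1-ts, in both groups above every wild-type array, with changes of 0.34 and 0.35 that did not pass (limma adjusted p = 0.747 and 0.0882). In Δgcn5 Δmst2 it had 13.37, 13.21 and 13.33, and in Δgcn5 Δelp3 12.83 and 12.97 and in the triple mutant 12.93, each overlapping the wild-type range. The paralog rps1402 lay between 14.23 and 14.63 on all 24 arrays. The call of rps1401 in Δmst2 Δelp3 was lost in 1 of 16 alternatives, with the date as a covariate (-0.95, adjusted p = 0.0925).

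In Δmst2 Δelp3 rpl4101, which encodes the very small large-subunit protein eL41, had 14.08, 12.90 and 13.87, against 14.51, 14.26 and 14.26 in wild type (-0.73 ± 0.22, limma adjusted p = 0.0256). A single array, replicate 2, was far under the other arrays of the group, and without it the change was -0.37 and no longer passed. The call was lost in 4 of 16 alternatives, the others being without wild type replicate 1, with the date as a covariate and with only the arrays compared (adjusted p up to 0.277). The paralog rpl4102 had 15.21, 15.00 and 15.20 in the double mutant, against 15.13, 15.05 and 15.06 in wild type.

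**Figure D4:**
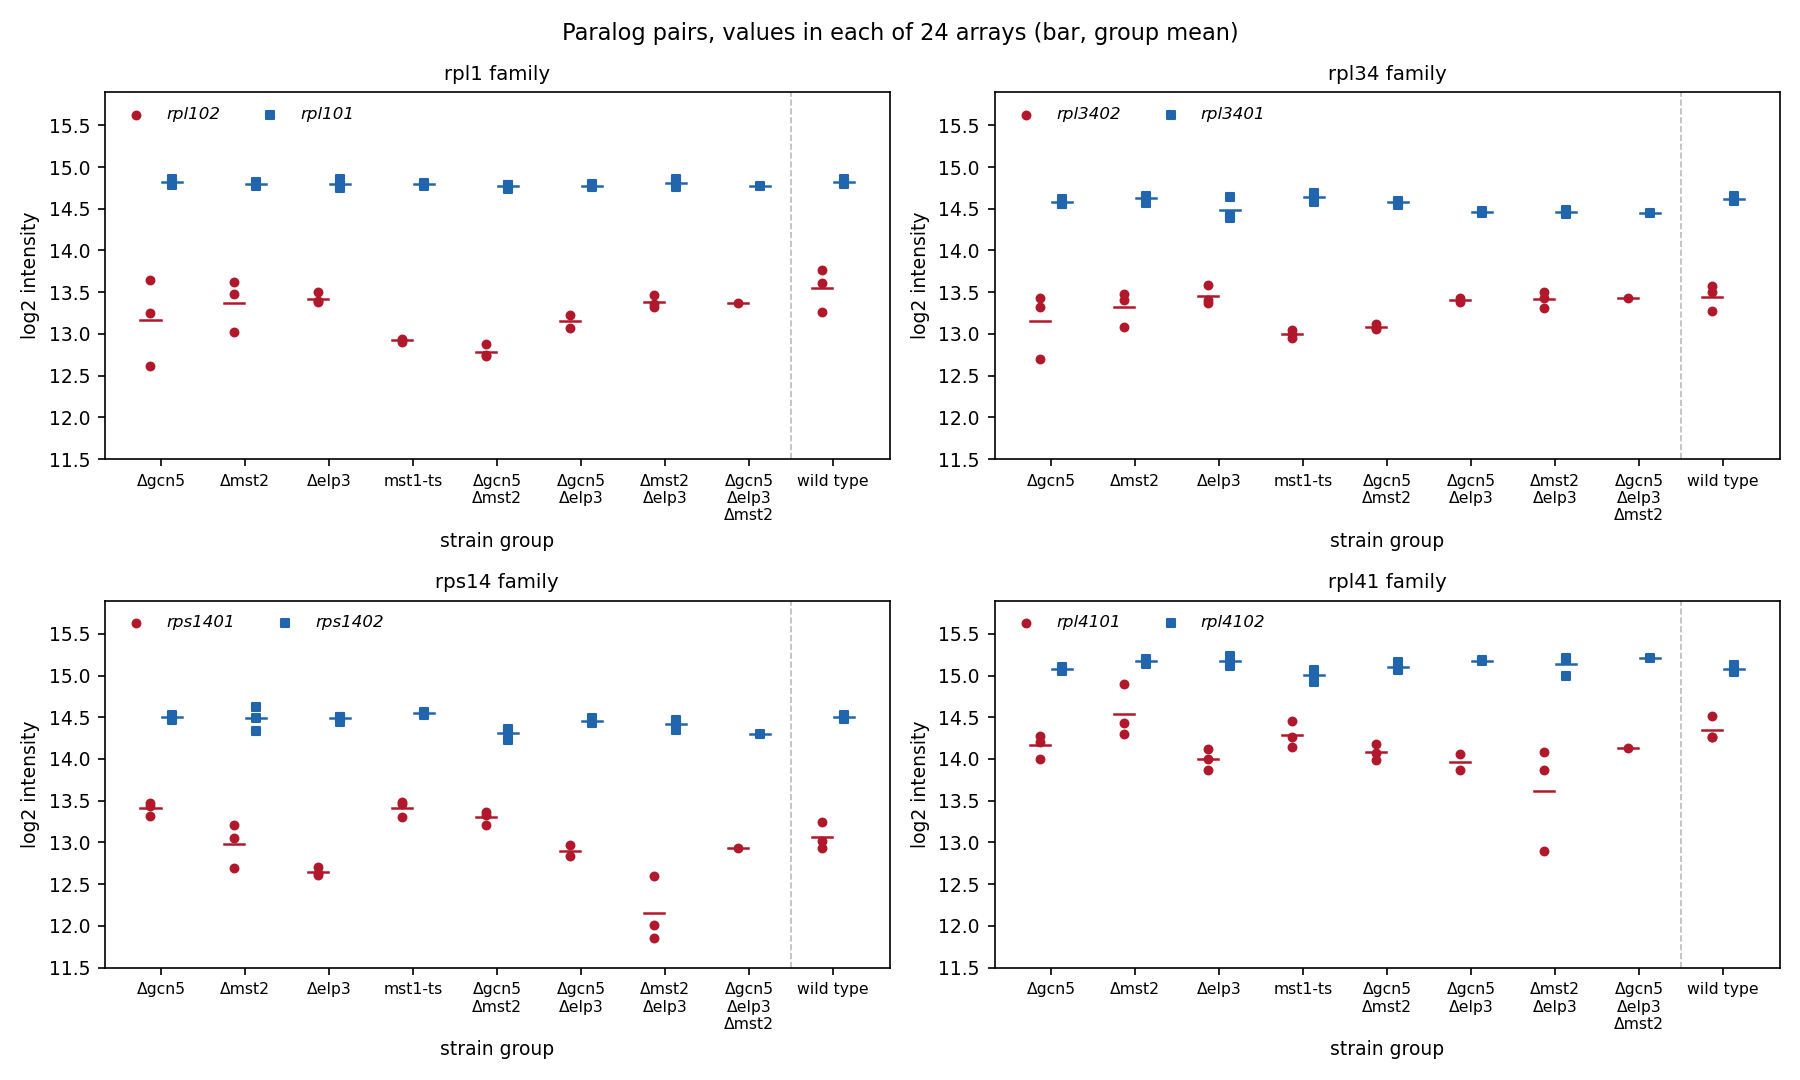
Log2 intensity of the paralogs of 4 families (rpl1, rpl34, rps14 and rpl41) in each of 24 arrays by strain group, with a bar at the group mean and wild type to the right of the dashed lines. The paralog with the lower signal (red) moves between groups, such as rpl102 at 12.73 to 12.94 in mst1-ts and Δgcn5 Δmst2. The other (blue) stays within a narrower band. In the groups lacking elp3, rpl3401 (blue) was lower than in wild type by 0.14 to 0.17, while rpl3402 (red) changed by -0.04 to 0.01.

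The double and triple mutants lacking elp3 were also set against Δelp3, which shares their date. In Δgcn5 Δelp3 and in Δmst2 Δelp3 no member rose or fell, where 0.602% of all features fell in each and 0.502% and 0.161% rose, and 2 members were lower at an unadjusted p under 0.05 in each and 0 higher. At that threshold 4.98% of all features were lower and 4.38% higher in Δgcn5 Δelp3, and 3.01% lower and 3.09% higher in Δmst2 Δelp3. In the triple mutant 1 member fell, against 5.2% of all features that fell, and none rose, where 4.3% of all features did. At an unadjusted p under 0.05, 3 members were lower and 0 higher, where 13.1% and 10.9% of all features were. The member that fell was rpl1603, at 11.56, against 12.25, 12.40 and 12.33 in Δelp3 (-0.77 ± 0.22, limma adjusted p = 0.0376). This call was lost without any of the 3 Δelp3 arrays.

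The median change of the members in these comparisons was -0.03 in Δgcn5 Δelp3, -0.05 in Δmst2 Δelp3 and -0.03 in the triple mutant. For rps1401 in Δmst2 Δelp3 the change against Δelp3 was -0.49 ± 0.16 and did not pass (limma adjusted p = 0.312). For rpl1603 in Δgcn5 Δelp3 it was -0.45 ± 0.18 (adjusted p = 0.368), and with only the 5 arrays of these groups in the fit it passed (adjusted p = 0.0362).

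Paralogs were then compared within arrays. A level of one probe set cannot be set against that of another, but a change of their difference between strains can be tested. There were 48 pairs in 42 families, which hold 87 members, and the difference of each pair was tested with limma together with all features, 5029 quantities in all. In 10 pairs of 9 families the difference changed in at least 1 of 8 mutants, and in 6 pairs in 2 or more. The other 38 pairs passed in none. Without wild type replicate 1 or 2 the count was 6, and with the date as a covariate 5.

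By mutant, 0 pairs changed in Δgcn5 and 0 in Δmst2, where 0.119% and 0.159% of all quantities changed, 2 in Δelp3 (21.3%), 4 in mst1-ts (35.3%), 4 in Δgcn5 Δmst2 (24.7%), 3 in Δgcn5 Δelp3 (21.4%), 6 in Δmst2 Δelp3 (21.8%) and 2 in the triple mutant (11.6%). The share of pairs was thus under that of all quantities in each mutant. Against Δelp3 no pair changed, where 1.09% of all quantities did in Δgcn5 Δelp3, 0.756% in Δmst2 Δelp3 and 9.52% in the triple mutant. A difference within an array shows unequal change and does not show that either gene stayed constant.

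The widest ranges of the group means of a difference were those of rpl1602 against rpl1603 and rpl1601 against rpl1603, at 1.43 each. The difference of rpl1602 minus rpl1603 was 3.30, 3.44 and 3.37 in mst1-ts and 3.38, 3.35 and 3.39 in Δgcn5 Δmst2, against 1.67, 2.19 and 2.58 in wild type. It grew by 1.23 ± 0.18 in both mutants (limma adjusted p = 6.53e-05 and 0.000139), and passed in each of 16 alternatives. In the triple mutant it was 3.03, larger by 0.89 than in wild type (limma adjusted p = 0.0321), and in Δgcn5 Δelp3 2.75 and 2.78, larger by 0.61 (adjusted p = 0.0385). The changes in these last groups were lost in 3 of 13 and 7 of 15 alternatives, and without wild type replicate 1 that in Δgcn5 Δelp3 was 0.38.

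Next came rps1401 against rps1402, with a range of 1.26. The difference was -1.87, -2.49 and -2.44 in Δmst2 Δelp3, against -1.57, -1.51 and -1.23 in wild type (-0.82 ± 0.16, limma adjusted p = 0.00214), and this call was lost in 1 of 16 alternatives, with the date as a covariate (adjusted p = 0.161). In the same mutant rpl4101 minus rpl4102, with a range of 0.88, was -1.13, -2.10 and -1.33, against -0.61, -0.79 and -0.80 in wild type (-0.79 ± 0.19, limma adjusted p = 0.00661). This change was -0.50 without Δmst2 Δelp3 replicate 2, and the call was lost with the date as a covariate and with only the arrays compared (adjusted p up to 0.208). For rpl101 minus rpl102, with a range of 0.71, it was 1.84, 1.91 and 1.86 in mst1-ts and 2.06, 1.98 and 1.91 in Δgcn5 Δmst2, against 1.09, 1.19 and 1.54 in wild type, larger by 0.60 and 0.71 (limma adjusted p = 0.0291 and 0.0169). The change in mst1-ts was lost in 5 and that in Δgcn5 Δmst2 in 3 of 16 alternatives, all of which leave out 1 array.

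In each of these pairs the paralog with the larger change was the one whose probe set had the lower signal. The other pairs that passed were rpl3001 and rpl3002, rpl3401 and rpl3402, rps1001 and rps1002, rpl3201 and rpl3202, and rpl4301 and rpl4302. Where these pairs passed, the lower probe set changed more for rpl3402, rps1001 and rpl3201, but not throughout for the rest. In Δmst2 Δelp3 the brighter rpl3001 fell by 0.29 (limma adjusted p = 0.015), while rpl3002 differed by 0.03. There rpl4301, brighter than rpl4302 in wild type, fell by 0.34 (limma adjusted p = 0.0296), while rpl4302 differed by -0.12. The pair rpl3001 and rpl3002 changed in opposite ways, with a difference smaller by 0.40 in Δelp3 (limma adjusted p = 0.0076) and larger by 0.30 in Δgcn5 Δmst2 (adjusted p = 0.0316). In Δelp3 the changes were -0.22 for rpl3001 and 0.18 for rpl3002, neither of which passed, and in Δgcn5 Δmst2 rpl3002 fell by 0.34 while rpl3001 differed by -0.04.

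At the other end, rpl1901 and rpl1902, rpl1801 and rpl1802, and rps101 and rps102 kept their difference within 0.10, 0.10 and 0.12 log2 units over the 9 group means. Both rpl1901 and rpl1902 fell in Δgcn5 Δelp3 (-0.23 and -0.33) and in Δmst2 Δelp3 (-0.22 and -0.25). The chart of pair differences gives the changes in all mutants for the 10 pairs that passed.

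**Figure D5:**
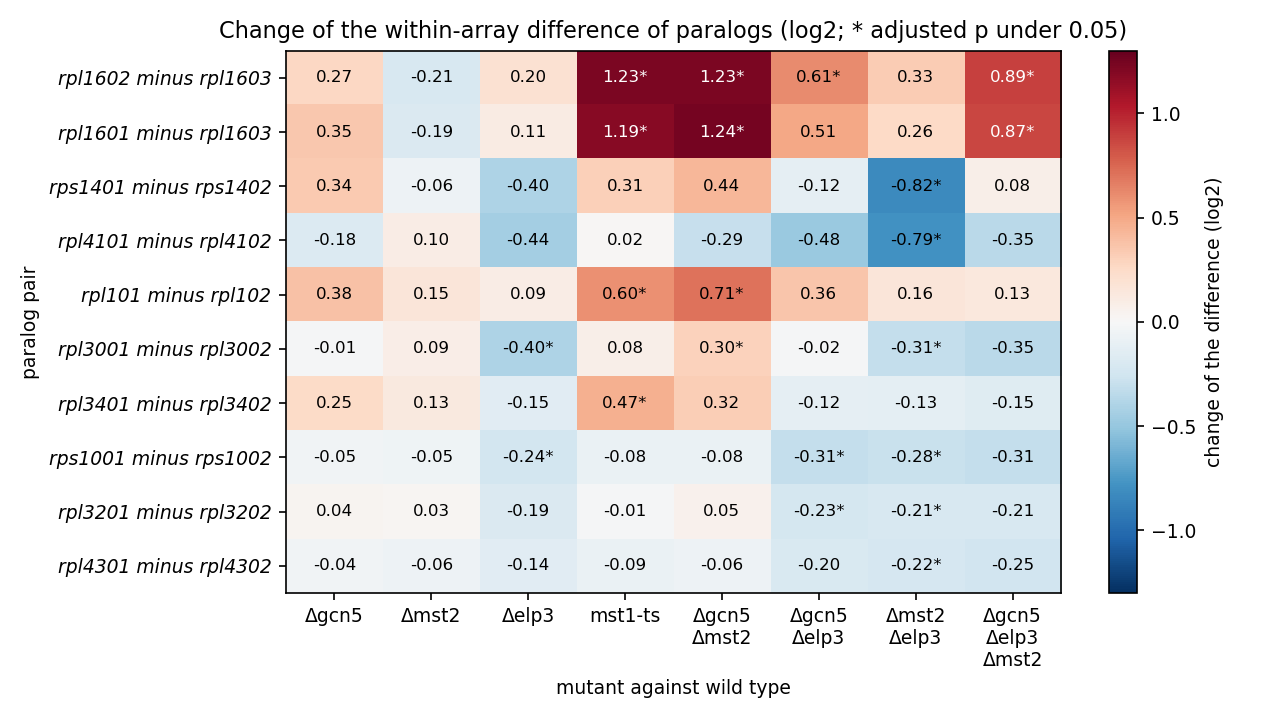
Change of the within-array difference of paralogs (log2, mutant minus wild type) for the 10 pairs that passed limma's test in at least 1 mutant, with an asterisk at an adjusted p under 0.05. The rpl16 pairs are largest in mst1-ts and Δgcn5 Δmst2, at 1.19 to 1.24, and the rps14 and rpl41 pairs in Δmst2 Δelp3, at -0.82 and -0.79.

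Other genes of translation were counted alongside. Of 7 genes for the ribosomal stalk, the acidic proteins that bind elongation factors, 1 fell in Δgcn5 Δmst2, which was rpp203 (-0.54, limma adjusted p = 0.0244), and none passed in the other mutants. Of 11 listed elongation factor genes 6 were measured, and the one that passed was stm1, which rose in Δelp3 (0.56) and in Δgcn5 Δelp3 (0.54). The fission yeast gene of that symbol is known as a receptor-like membrane protein linked to nitrogen starvation and not as an elongation factor. Of 38 listed initiation factor genes 15 were measured, of which 6 fell in mst1-ts (21.8% of all features), 3 in Δgcn5 Δmst2 (11.3%), 2 in Δelp3 (8.49%), 2 in Δgcn5 Δelp3 (9.01%), 1 in Δmst2 Δelp3 (9.19%) and 2 in the triple mutant (5.4%), and 1 rose, tif225 in Δmst2 Δelp3 (12.7%).

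The initiation factor gene with the largest falls was tif452, which encodes a cap-binding protein of the eIF4E family. It does not stand for the list. The median change over the 15 measured genes was 0.03 in Δelp3, -0.02 in Δgcn5 Δelp3, 0.06 in Δmst2 Δelp3 and -0.06 in the triple mutant. The values of tif452 were 10.59, 10.53 and 10.53 in Δelp3, 10.28 and 10.66 in Δgcn5 Δelp3, 10.78, 10.66 and 10.63 in Δmst2 Δelp3 and 10.70 in the triple mutant, against 11.30, 11.32 and 11.51 in wild type, without overlap. It fell by 0.83, 0.91, 0.69 and 0.68 in these groups (limma adjusted p of 0.00498 or less). Among 24 measured of 29 listed regulators of ribosomal protein genes and TOR signalling, 4 rose and 2 fell in mst1-ts, 5 rose and 1 fell in Δgcn5 Δmst2, 0 rose and 4 fell in Δelp3, 0 rose and 3 fell in Δgcn5 Δelp3, 2 rose and 5 fell in Δmst2 Δelp3, and 0 rose and 2 fell in the triple mutant. Of all features 13.7% rose and 21.8% fell in mst1-ts, 13.6% and 11.3% in Δgcn5 Δmst2, 13% and 8.49% in Δelp3, 12.5% and 9.01% in Δgcn5 Δelp3, 12.7% and 9.19% in Δmst2 Δelp3, and 6.36% and 5.4% in the triple mutant. One of the regulators that fell was rhb1, which encodes the small GTPase that activates TOR. It had 12.29, 12.40 and 12.28 in Δelp3 and 12.44, 12.28 and 12.52 in mst1-ts, against 13.07, 12.88 and 12.81 in wild type. Its falls were 0.59 and 0.51 (limma adjusted p = 0.00102 and 0.00161). The median change over the 24 regulators was -0.14 in Δelp3 but 0.12 in mst1-ts, so rhb1 does not stand for the list.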

How the data were processed

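The authors prepared labelled cRNA from total RNA, hybridised it to Affymetrix Yeast Genome 2.0 arrays and made the deposited values, log2 intensities per probe set, with RMA, which corrects background, normalizes arrays to common quantiles and summarises the probes of a set. They tested them with limma. Their tool versions are not named in the labels or methods. The deposited table was used as it is, since the values (4.85 to 15.35) and array medians showed that it is normalized. Of 5028 probe sets 29 controls and 18 dimmer probe sets of the same gene were left out, leaving 4981 features, 2899 of them with a symbol. Symbols were taken from the platform annotation and updated through RefSeq, which held 2914 identifiers.

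Group means were fitted on all 24 arrays with limma 3.58.1 in R 4.3.3 (15 residual degrees of freedom), and p-values, two-sided, were adjusted by Benjamini-Hochberg over all features, or over 5029 quantities for paralog pairs. The threshold of the study was read as a fold on the linear scale, which is 1.70 on the log2 scale. Named were, per contrast, up to 2 members with the largest rise and fall, the 5 called in the most contrasts, the 5 pairs with the widest and 3 with the narrowest range, and the 3 brightest and 3 dimmest members; other genes come from lists of translation genes, or were named after their values were seen because a count was small or a pair stood out. The members, lists and tests were chosen with earlier results of these data known, and the interactions, the division by signal and the counts without Δmst2 Δelp3 replicate 2 after seeing the data. The number of arrays limits the precision. The scripts were tested on simulated data. Alternatives are given in the closing section. No sequence is shown.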

Additional observations from a re-analysis of the deposited data

Results flagged for a closer look

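For rpl1603 the effect of losing gcn5 differed with and without mst2. It is taken up because the effects of 2 genotypes under the same contrast differed by a test of the difference itself, which was chosen after seeing the data. The change was -1.27 in Δgcn5 Δmst2, -0.27 in Δgcn5 and 0.07 in Δmst2, each against wild type, so that the double mutant lay 1.07 ± 0.22 log2 units below the sum of both single effects (departure of -1.07, limma adjusted p = 0.0198). No other member passed in this interaction, where 1.39% of all features did, and none in the interactions of gcn5 with elp3 (0.341%) and mst2 with elp3 (0.381%), with 0 and 1 members at an unadjusted p under 0.05.

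Without replicate 2 of Δgcn5 and replicate 2 of Δmst2, whose deleted genes go against their labels, the departure was -1.09 ± 0.25 (limma adjusted p = 0.0256), and 3.63% of all features passed. Over 21 alternatives the departure ran from -1.25 to -0.87 and passed in 17. The exceptions were leaving out Δgcn5 replicate 1, Δmst2 replicate 1, Δgcn5 Δmst2 replicate 1, or wild type replicate 2 together with both doubted libraries, with adjusted p of up to 0.0589.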

How the results depend on the processing

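No call changed direction in any alternative, but the median change of the members, close to 0 in mst1-ts and Δmst2, turned positive in some (up to 0.02 and 0.01). The experiment date as a covariate could be estimated only from the 3 Δgcn5 Δmst2 arrays, and with it the number of members that fell was 0 in Δelp3, 0 in Δgcn5 Δelp3, 0 in Δmst2 Δelp3, 0 in the triple mutant and 5 in Δgcn5 Δmst2, and 5 paralog pairs changed unequally. With an intensity trend and robust prior more members fell: 15 in Δelp3, 17 in Δgcn5 Δelp3, 32 in Δmst2 Δelp3, 8 in the triple mutant (2 against Δelp3) and 19 in Δgcn5 Δmst2, 1 rose in Δelp3 (rpl6), and 25 pairs changed. With only the arrays compared, 1 fell in Δelp3, 1 in Δgcn5 Δelp3, 3 in Δmst2 Δelp3, 0 in the triple mutant, 2 in Δgcn5 Δmst2 and 1 in Δgcn5 Δelp3 against Δelp3. Quantile normalization gave 3 falls in Δgcn5 Δelp3 and 1 rise in Δelp3 (rpl6), and either centring on other features or leaving out the lowest 25% of features gave 8 falls in Δelp3. At the fold threshold of the study the count was 0 in each comparison. For the alternatives in this section the share of all features called is not given, so their counts cannot be set against a background. Without the libraries labelled Δgcn5 and Δmst2 replicate 2, 1 member fell in Δgcn5; without wild type replicate 2 as well, 1 fell in Δelp3, 5 in Δgcn5 Δelp3, 9 in Δmst2 Δelp3 and 5 in Δgcn5 Δmst2.

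Same-numbered arrays of different groups did not deviate together (correlations of -0.70 to 0.56, over 0.1 in 22 of 77), so replicate numbers were not taken to pair arrays. With a replicate block 6 members fell in Δgcn5 Δmst2, and other counts stayed within 1.5 times. Leaving out 1 replicate at a time gave 1 to 3 falls in mst1-ts, 0 to 6 in Δelp3, 0 to 5 in Δgcn5 Δelp3, 2 to 5 in Δgcn5 Δmst2, 5 to 18 in Δmst2 Δelp3, 2 to 3 in the triple mutant, 0 to 1 in Δmst2 Δelp3 against Δelp3, 0 in the triple mutant against Δelp3 and 6 to 8 unequal pairs. The cause of these differences was not tested.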
